A study of Mus musculus with 6 samples.

Results

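The genes described here encode 9 proteins of the inner nuclear membrane and its chromatin side: the LEM-domain proteins Tmpo, Emd, Lemd2, Lemd3 and Ankle2, the chromatin protein Banf1, the torsin cofactors Tor1aip1 and Tor1aip2, and the lamin B receptor Lbr. They were chosen by name, by an exact match to the gene symbols of the deposited UMI count table. All 9 of 9 were listed among the 10520 genes of the table, and all 9 were among the 8969 genes tested. The values come from 6 MARS-seq libraries of E0771 cells, a C57BL/6 mouse breast adenocarcinoma line, of which 3 were shControl and 3 were shLmna. The shControl cells carried the empty TRC2 pLKO.5-puro vector and the shLmna cells an shRNA against lamin A/C, introduced by lentivirus, and both lines were selected with puromycin and expanded. Each line was a selected population rather than a clone by the protocol given, the knockdown titles read shRNA4 while the genotype reads shLmna, and the labels do not say whether the replicates came from separate cultures, so the p-values below measure only the spread between these libraries, which may be technical.

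The nuclear lamina is a meshwork of A-type lamins (lamin A and lamin C, both from Lmna) and B-type lamins under the inner nuclear membrane. LEM-domain proteins sit in or near this membrane and share a short helical fold, the LEM domain, which binds barrier-to-autointegration factor (BAF, the product of Banf1), a small protein that bridges DNA. Lamina-associated polypeptides (LAPs) and the lamin B receptor link the membrane to lamins and chromatin, and several of these proteins depend on A-type lamins for their place in the nuclear envelope. The comparison of shLmna with shControl asked what a lowered Lmna transcript level was accompanied by in the transcripts of these membrane proteins.

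The coding DNA of the LEM domain, the fold for which LEM proteins are named, is shown for Emd, Tmpo, Lemd3 and Ankle2. Each line is the coding strand from 5′ to 3′ of a GENCODE M21 (GRCm38) transcript, and capitals mark the bases identical to Emd in a codon-by-codon alignment without gaps to the first 45 codons of Emd, which is printed in lower case as the reference.
Emd, codons 1 to 45 of 259: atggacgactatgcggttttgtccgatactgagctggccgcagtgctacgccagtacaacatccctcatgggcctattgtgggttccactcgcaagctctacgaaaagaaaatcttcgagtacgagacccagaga
Tmpo, codons 110 to 151 of 693: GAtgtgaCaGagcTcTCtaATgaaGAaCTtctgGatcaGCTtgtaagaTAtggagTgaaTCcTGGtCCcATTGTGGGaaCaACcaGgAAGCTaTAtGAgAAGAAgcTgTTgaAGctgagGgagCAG
Lemd3, codons 13 to 44 of 918: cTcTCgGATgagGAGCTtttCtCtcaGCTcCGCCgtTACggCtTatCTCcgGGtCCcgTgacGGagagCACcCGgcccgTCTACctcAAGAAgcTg
Ankle2, codons 76 to 108 of 964: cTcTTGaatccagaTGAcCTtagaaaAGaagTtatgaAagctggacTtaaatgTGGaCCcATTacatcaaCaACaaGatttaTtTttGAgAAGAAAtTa
Tmpo shared 21 of 42 aligned residues with Emd, Lemd3 shared 16 of 32 and Ankle2 10 of 33. The alignment scores of these 3 genes lay between 50 and 98. The best alignments of Tor1aip1, Tor1aip2, Banf1 and Lbr covered 7 to 16 codons with scores of 17 to 26. The UMIs below were counted at the 3′ ends of the transcripts.

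The libraries held between 1846208 and 3242051 UMIs (unique molecular identifiers, which mark each captured RNA molecule so that it is counted once). Between replicates of a group the chi-square per degree of freedom ran from 5.11 to 8.28, above sampling noise for each pair. The library titles name a plate and number the shControl libraries 13 to 15 and the shLmna libraries 16 to 18. The labels do not say what the numbers are. If they are plate positions, position and group cannot be told apart. Of 8 epithelial markers fixed as a list, 5 were analysed, and 4 of these were tested without a call. Krt8, a keratin of simple epithelia, averaged 276 CPM (counts per 1000000 UMIs, after the TMM scaling of edgeR) in shControl and 291 in shLmna. The other 3 tested epithelial markers had log2 fold changes of -0.90 for Epcam (adjusted p = 0.0909), whose groups did not overlap, -0.53 for Krt18 and 0.37 for Erbb2, and the median of the 4 was -0.23. Cdh1 and Krt19 were not analysed here. Of 6 macrophage markers 3 were analysed, and their summed level was 15.9 to 19.2 CPM in shControl and 20.9 to 26.6 in shLmna. Within this list Lyz2, a lysozyme, rose by 1.28 (SE 0.30, adjusted p = 0.0110), and the other tested marker, Cd68, had -0.62 (SE 0.33, adjusted p = 0.234), so that the higher sum came from Lyz2 and Csf1r. The defining markers Ptprc and Adgre1 were not analysed here. Of 6 fibroblast markers 4 were analysed, with summed levels of 18.6 to 18.8 against 27.2 to 30.8, and Pdgfrb, a growth factor receptor, rose by 0.74 (SE 0.23, adjusted p = 0.0457). Only Pecam1 of 5 endothelial markers was analysed, at 0.625 to 3.18 against 0.750 to 2.13 CPM. The part of these markers in the results below was not tested.

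Lmna, the targeted gene, was measured first. Its UMIs numbered 2066, 2794 and 1764 in the shControl libraries (in the order of replicates 1, 2 and 3, kept below) against 1035, 1023 and 713 in shLmna. The groups did not overlap, and the level in shLmna was 0.436 times that in shControl (log2 fold change -1.20, SE 0.13, adjusted p = 3.547e-05 by the quasi-likelihood test of edgeR, adjusted by Benjamini-Hochberg over all tested genes). Fold changes here are of shLmna over shControl. In bulk RNA, a change in the share of cells that express a gene and a change in RNA per cell cannot be told apart.

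Across the 9 genes, only Tmpo passed the test. At an adjusted p below 0.05, 1 of 9 was higher and 0 were lower by edgeR, DESeq2 and limma-voom alike, where 13.7% of all tested genes were called by edgeR, 7.96% higher and 5.78% lower. With a correction for GC content, described below, 728 genes were called higher and 772 lower, in place of 714 and 518. By the criteria of the study, which also ask for a mean normalized count over 5 and at least a doubling or halving (log2 fold change beyond 1), 1 of 9 was called against 5.71% of all tested genes. The median log2 fold change of the 9 genes was 0.11 and that of all tested genes 0.0033. By sign, 6 of the 9 fold changes lay above 0 and 3 below. At an unadjusted p below 0.05, 2 of 9 were counted, Tmpo and Lbr, both higher and 0 lower, against 28.4% of all tested genes. The 2 groups of libraries did not overlap for 4 of 9 genes, Tmpo, Tor1aip2, Banf1 and Lbr, against 32.5% of all tested genes. The counts of the set were thus near the background, and within the set the change of Tmpo was the largest. The background also differed with GC content. Among tested genes within 2 percentage points of a member, the share called higher ran from 6.34% for Emd to 23.4% for Lemd3, with 10.9% for Tmpo. At the lowest GC content among the ends of Tmpo, 8.40% of tested genes reached or passed its fold change, as given below.

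**Figure D1:**
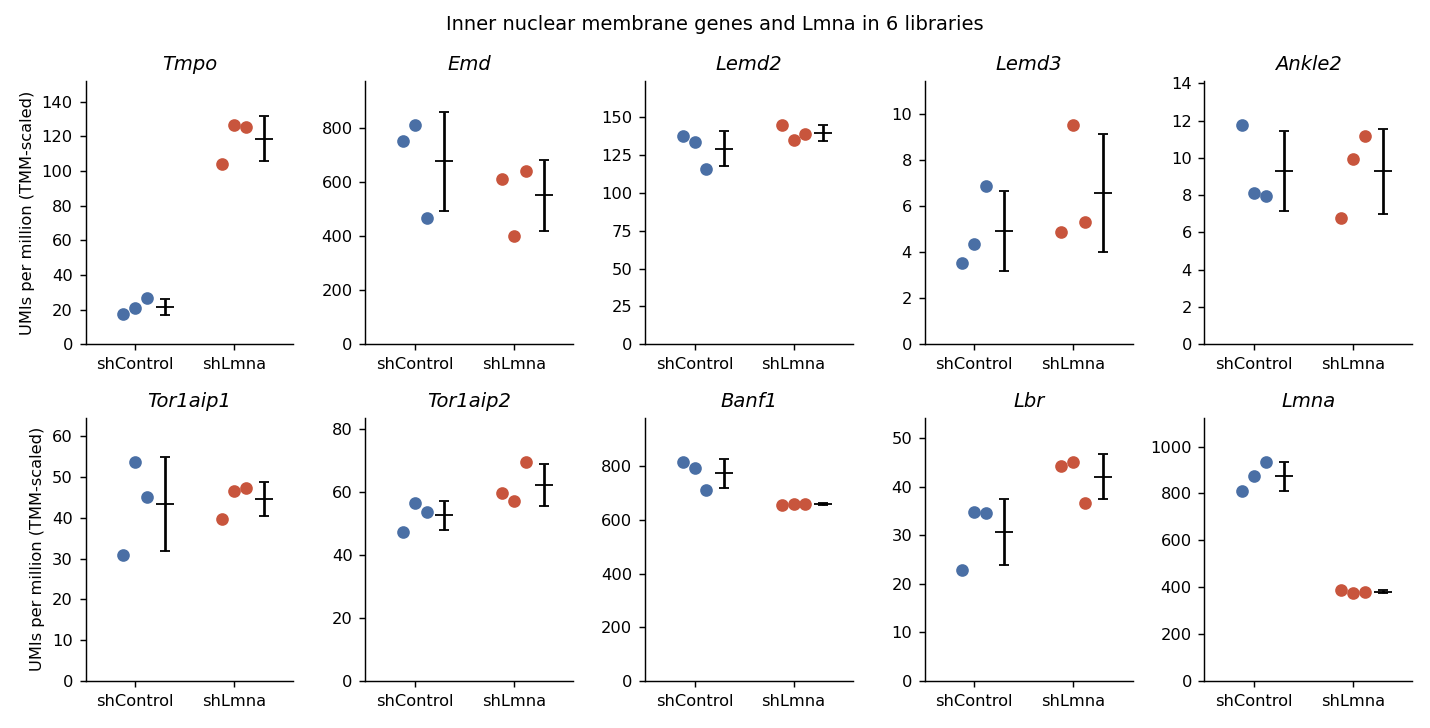
Level of each gene in each library, in CPM after TMM scaling, on linear axes from 0. Circles are libraries, replicates 1 to 3 from left to right within shControl (blue) and shLmna (red), and the bars beside them are the mean ± SD (n = 3). The Tmpo groups lie far apart at 21.5 and 119, the Lmna groups lie apart in the other direction, and the Emd, Lemd2, Lemd3, Ankle2 and Tor1aip1 groups overlap.

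Tmpo, which encodes the lamina-associated polypeptide 2 (LAP2) isoforms, was the gene with the change. The gene spans bases 91147571 to 91181315 of chromosome 10 in GRCm38, reverse strand. The shControl replicates held 44, 66 and 50 UMIs and the shLmna replicates 277, 345 and 236. Every shLmna library stood above every shControl library, whatever its depth. The level rose from 21.5 ± 4.69 to 119 ± 12.9 CPM (SD, n = 3), which was 5.58-fold (95% interval 4.22 to 7.38). On the log2 scale this was 2.48 (SE 0.19, adjusted p = 2.543e-06, edgeR), the fifth smallest p of the 8969 genes. The change was more than the replicate spread, as the coefficient of variation was 21.8% within shControl and 10.8% within shLmna. In the deposited log2 values, which the authors normalized and corrected with ComBat, Tmpo read 6.92, 6.98 and 7.07 in shControl and 8.27, 8.28 and 8.26 in shLmna. The order of the groups was the same there, with a difference of 1.28 and no test. That difference was smaller than the fold change from the counts, and the cause was not tested.

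The Tmpo count pools isoforms that differ in their ends. The annotation gives 4 distinct 3′ ends to its coding transcripts. The transcript Tmpo-201, which codes for 693 residues, ends at base 91160417 and corresponds by its length and separate end to LAP2alpha, the nucleoplasmic isoform that binds A-type lamins and the retinoblastoma protein. The transcripts Tmpo-202, Tmpo-204 and Tmpo-203 code for 452, 380 and 412 residues and end downstream at 91147571, 91148905 and 91149116. These shorter forms belong to the membrane-bound group, of which LAP2beta is the best known. The deposited table holds 1 value for the gene, so that which isoform rose was not analysed here. The ends of Tmpo-203 and Tmpo-204 overlap the lincRNA Gm26765 on the opposite strand over 244 bases, and 22.0% of their 35-base stretches occur in that gene. The ends of Tmpo-201 and Tmpo-202 shared no 35-base stretch with any other annotated transcript. Whether the counting used the strand is not given in the sources used here, so that the reads of the overlapping stretch cannot be assigned.

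Emd encodes emerin, the LEM protein of the inner membrane whose loss causes X-linked Emery-Dreifuss muscular dystrophy and which needs A-type lamins to stay there. The gene spans bases 74254687 to 74261548 of chromosome X, forward strand. The shControl replicates held 1915, 2593 and 879 UMIs and the shLmna replicates 1628, 1092 and 1207. The groups overlapped, with shControl replicate 3 and shLmna replicate 2 both low for their depth. The level was 676 ± 184 CPM in shControl and 551 ± 131 in shLmna (SD, n = 3). The log2 fold change of -0.30 (SE 0.21, 95% interval -0.74 to 0.15, adjusted p = 0.377, edgeR) did not pass the test. The interval leaves room for a decrease to 0.598 times the control level. The ends of Emd-202 and Emd-204 overlap the pseudogene Gm14686 on the same strand over 343 and 74 bases, while the end of the principal transcript Emd-201 shared no 35-base stretch with another gene.

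Lemd2 encodes a LEM protein that, during the closing of the nuclear envelope after mitosis, recruits the ESCRT adaptor Chmp7. Its locus is chromosome 17, bases 27189600 to 27204469, reverse strand. The shControl replicates held 351, 428 and 219 UMIs and the shLmna replicates 387, 367 and 261. The groups overlapped and the replicates were tight, with coefficients of variation of 8.86% and 3.72%. A log2 fold change of 0.11 was found (SE 0.14, 95% interval -0.19 to 0.41, adjusted p = 0.660, edgeR). In linear terms the interval ran from 0.876 to 1.33 times the control level.

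Lemd3 encodes MAN1, a LEM protein that binds receptor-regulated SMADs and dampens TGF-beta and BMP signalling. Like Tmpo it lies on chromosome 10, from 120923413 to 120979332 on the reverse strand. With 9, 14 and 13 UMIs in shControl and 13, 26 and 10 in shLmna, it had the fewest UMIs of the 9 genes. The groups overlapped, and shLmna replicate 2 stood above the other 5 libraries. Its log2 fold change was 0.48 (SE 0.39, 95% interval -0.35 to 1.31, adjusted p = 0.455, edgeR). In linear terms the interval ran from 0.783 to 2.48 times the control level, which is wide at this depth.

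Ankle2 encodes LEM4, an ankyrin-repeat LEM protein that helps to remove phosphate from BAF at the end of mitosis. Its locus is chromosome 5, bases 110231004 to 110256651, forward strand. The counts were 30, 26 and 15 UMIs in shControl and 18, 27 and 21 in shLmna. The groups overlapped, at 9.28 ± 2.15 and 9.28 ± 2.28 CPM (SD, n = 3). The fit gave a log2 fold change of -0.024 (SE 0.31, 95% interval -0.68 to 0.63, adjusted p = 0.973, edgeR), with a wide interval.

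Banf1 encodes BAF, the partner that all LEM domains bind. This short gene spans bases 5364638 to 5367168 of chromosome 19, reverse strand. The shControl replicates held 2083, 2531 and 1342 UMIs and the shLmna replicates 1751, 1799 and 1241. After scaling these were 817, 791 and 712 CPM in shControl and 656, 660 and 660 in shLmna. Every shLmna library lay below every shControl library, by a small margin, and the shLmna libraries were nearly equal. The mean was 773 ± 54.7 against 659 ± 2.30 (SD, n = 3). The log2 fold change of -0.23 (SE 0.13, 95% interval -0.51 to 0.044, adjusted p = 0.263, edgeR) did not pass the test. The end of Banf1-201 overlaps Eif1ad on the opposite strand over 167 bases.

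Tor1aip1 and Tor1aip2 encode LAP1 and LULL1, the proteins of the inner nuclear membrane and the endoplasmic reticulum that switch on the ATPase activity of torsins. They lie head to head on chromosome 1, Tor1aip1 on the reverse strand from 156004599 to 156036480 and Tor1aip2 on the forward strand from 156035403 to 156068861. Tor1aip1 had 79, 172 and 85 UMIs in shControl and 106, 127 and 89 in shLmna. The shLmna libraries lay inside the range of the shControl libraries. Its log2 fold change was 0.033 (SE 0.21, 95% interval -0.41 to 0.47, adjusted p = 0.941, edgeR). Tor1aip2 had 121, 181 and 101 UMIs in shControl and 159, 156 and 131 in shLmna. After scaling, its shLmna libraries at 59.6, 57.3 and 69.7 CPM lay just above the shControl libraries at 47.5, 56.6 and 53.6. The log2 fold change of 0.24 (SE 0.16, 95% interval -0.11 to 0.58, adjusted p = 0.373, edgeR) did not pass the test. Neither gene came near the change of Tmpo.

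Lbr encodes the lamin B receptor, a membrane protein that binds B-type lamins and heterochromatin protein 1 and is also a sterol reductase of cholesterol synthesis. In many tissues Lbr and A-type lamins are known as alternative tethers of heterochromatin to the nuclear envelope. Its locus is chromosome 1, bases 181815335 to 181843046, reverse strand. The shControl replicates held 58, 111 and 65 UMIs and the shLmna replicates 118, 123 and 69. After scaling, shControl stood at 22.7, 34.7 and 34.5 CPM and shLmna at 44.2, 45.2 and 36.7. The groups did not overlap, but shLmna replicate 3 was close to the upper shControl libraries. The fit gave a log2 fold change of 0.46 (SE 0.20, 95% interval 0.029 to 0.90), with an unadjusted p of 0.0383 and an adjusted p of 0.149 (edgeR), and so did not pass the test. The end of its only coding transcript, Lbr-201, overlaps Dnah14 on the opposite strand over 440 bases, and 42.0% of its 35-base stretches occur in that gene.

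**Figure D2:**
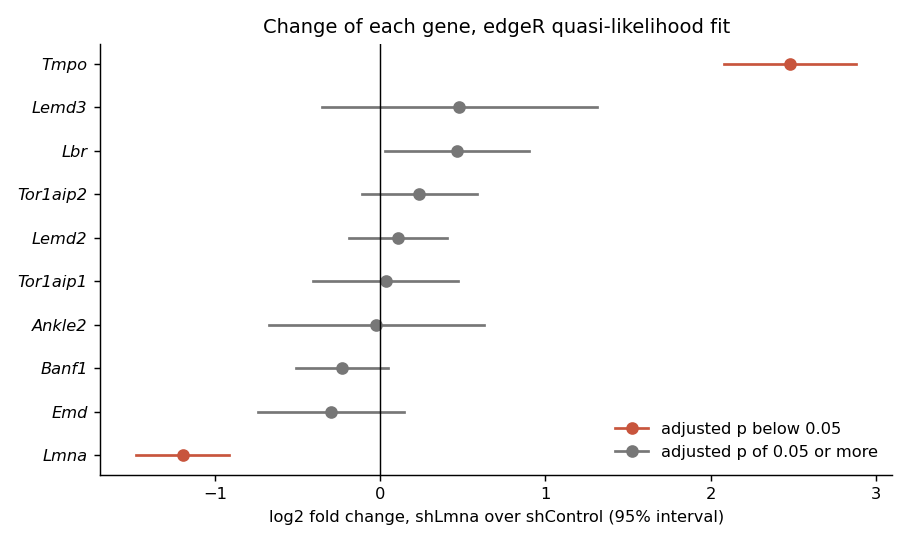
Log2 fold change of shLmna over shControl (horizontal axis) for the 9 genes and Lmna, with bars for the 95% interval of edgeR's quasi-likelihood fit. Red marks an adjusted p below 0.05. The interval of Tmpo (2.08 to 2.88) lies above those of the other 8 genes, which reach at most 1.31.

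The 8 genes other than Tmpo had log2 fold changes between -0.30 and 0.48, adjusted p-values between 0.149 and 0.973, and standard errors between 0.13 and 0.39. Their intervals reached up to 1.31 and down to -0.74. The lower bound of Tmpo, 2.08, lay above the upper bounds of all 8. The difference between genes was not itself tested.

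As a share of the UMIs of all 9 genes together, Tmpo made up 0.938%, 1.08% and 1.81% in shControl and 6.21%, 8.49% and 7.23% in shLmna. No library was between these ranges. The share of Lemd2 was 7.48%, 6.99% and 7.91% against 8.68%, 9.03% and 7.99%, which also did not overlap, though narrowly. The shares of the other 7 genes overlapped, so the shares of 2 of 9 genes were separate. Without shControl replicate 3 this count was 6 of 9, and without shLmna replicate 1 it was 4 of 9. Emd and Banf1 averaged 38.3% and 44.7% of these UMIs in shControl and 33.5% and 40.5% in shLmna. The shares of the other genes therefore depend on these 2. The matching number over all tested genes is not given here, so these counts are not read as a result about the 9 genes.

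Set against Lmna in the same library, the ratios of all 9 genes were higher in every shLmna library than in every shControl library. The ratio of Tmpo UMIs to Lmna UMIs was 0.0213, 0.0236 and 0.0283 in shControl and 0.268, 0.337 and 0.331 in shLmna, a 12.8-fold difference of the means. Lbr stood at 0.0349 ± 0.00607 against 0.110 ± 0.0122 (SD, n = 3), a 3.16-fold difference. The other 7 lay between 1.84-fold for Emd and 3.11-fold for Lemd3. Each ratio gave an exact two-sided permutation p of 0.1, the smallest that 3 against 3 libraries allow (adjusted over the 9 ratios, 0.1), so none could pass the threshold. The same separation held for 91% of all tested genes, so that the count of 9 is near the background. For the B-type lamins, the ratio to Lmna was 1.97-fold higher for Lmnb1 and 2.58-fold higher for Lmnb2. Lmna, the denominator, fell to 0.436 times its control level, so a gene whose own level is unchanged also gains a higher ratio. The ratios of Emd, Ankle2, Banf1 and Lmnb1 were higher although their own log2 fold changes were -0.30, -0.024, -0.23 and -0.22.

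The counted 3′ ends of these genes differ in base composition, and across the tested genes the fold change moved with it. In the last 1000 bases of the longest coding transcript, the GC content was 32.7% for Lemd3, 33.4% for Lbr, 36.3% for Ankle2 and 38.0% for Tmpo, up to 55.2% for Banf1 and 56.8% for Lemd2, where the median of tested genes was 47.1%. Among 133 tested genes below 32% GC the median log2 fold change was 0.50, and among 1521 between 44% and 48% it was -0.041. The value of Tmpo is that of the Tmpo-201 end, and 1099 tested genes within 2 percentage points of it had a median log2 fold change of 0.12 and a 95th percentile of 1.31, below the 2.48 of Tmpo. The end of Tmpo-202 has a GC content of 33.7%, and among 488 tested genes within 2 percentage points of that the median was 0.30, the 95th percentile was 3.61, and 8.40% reached or passed Tmpo. Lbr and Lemd3 stood near theirs, with medians of 0.33 over 461 genes and 0.38 over 380. After a correction for GC content the log2 fold change of Tmpo was 2.27 with the Tmpo-201 end. With the Tmpo-202 end, an alternative chosen after seeing the data, it was 1.93 (SE 0.15, adjusted p = 1.649e-06, edgeR), and Tmpo was called in both. The correction takes out the mean trend with GC content and leaves the upper tail seen at low GC content. It therefore cannot set Tmpo apart from the 8.40% of genes in that tail, and the part of GC content was not tested. The values of Lbr and Lemd3 turned to -0.092 and -0.13 (adjusted p = 0.786 and 0.842, edgeR).

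**Figure D3:**
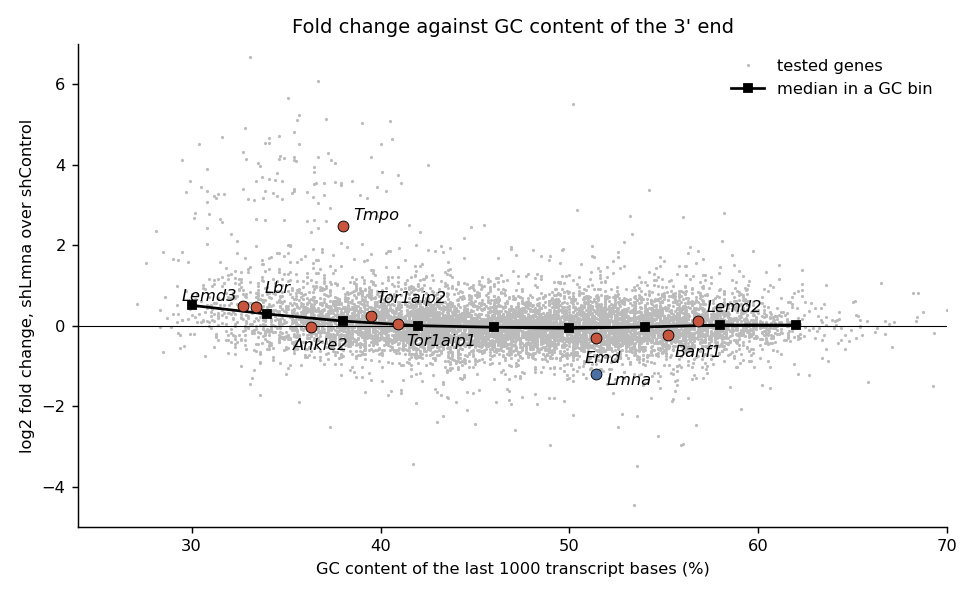
Log2 fold change of shLmna over shControl against the GC content of the last 1000 transcript bases, in percent. Grey dots are tested genes, black squares the median in GC bins (outer bins are drawn at 30% and 62%), red circles the 9 genes and the blue circle Lmna. Lbr and Lemd3 lie on the raised low-GC end of the median line, and Tmpo lies above it at 38.0% GC, the value of its Tmpo-201 end.

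The known partners of these proteins and related genes were followed through lists. Of all tested genes, 13.7% were called by edgeR and 28.4% had an unadjusted p below 0.05. Among the lamins, Lmnb1 and Lmnb2 had log2 fold changes of -0.22 (SE 0.15, adjusted p = 0.366) and 0.19 (SE 0.18, adjusted p = 0.516), so Lmna was the 1 of 3 that was called. The Lmnb1 groups did not overlap, at 106, 103 and 128 CPM in shControl and 97.8, 93.6 and 98.9 in shLmna. The groups did not overlap for 32.5% of all tested genes. None of the 4 tested torsins, the ATPases that Tor1aip1 and Tor1aip2 activate, was called by edgeR, DESeq2 or limma-voom, and 1, Tor4a, had an unadjusted p below 0.05. A list of 8 genes of BAF kinases and phosphatases, with family members and subunits, had 0 calls by these 3 tools. It had 0 at an unadjusted p below 0.05, with log2 fold changes between -0.65 and 0.27. In this list Ppp2r1a, a scaffold subunit of PP2A, was called lower without shControl replicate 3 (-0.63, adjusted p = 0.0260). The 8 tested genes of other inner nuclear membrane proteins, such as Sun1 and Sun2, had 0 calls by the 3 tools, a median of 0.024, and 1 gene, Tmem43, with an unadjusted p below 0.05.

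Lists tied to single members came next, where 7.96% of all tested genes were called higher and 5.78% lower by edgeR. At an unadjusted p below 0.05 the share of all tested genes was 28.4%. Of 11 tested genes of nuclear membrane sealing, the ESCRT machinery that Lemd2 recruits, 3 rose and 0 fell, with a median log2 fold change of 0.16. They were the ESCRT-III subunits Chmp3 (0.84, SE 0.17, adjusted p = 0.00401) and Chmp6 (0.63, SE 0.17, adjusted p = 0.0215), and the ESCRT-III regulator Cc2d1b (0.71, SE 0.21, adjusted p = 0.0355). Chmp7, the direct partner of Lemd2, had 0.16 (SE 0.18, adjusted p = 0.618). The call of Cc2d1b was lost when any 1 of 5 of the 6 libraries was left out, and that of Chmp6 without shControl replicate 2, shLmna replicate 2 or shLmna replicate 3, so that the list held 1 call, Chmp3, without any of these 3 libraries. Chmp3 was called in each of these fits. The subunit Chmp2b was called lower with the GC correction (-0.55, adjusted p = 0.0197), and at an unadjusted p below 0.05 the list had 4 genes higher and 1, Chmp4b, lower. Lemd3 acts on SMADs together with the phosphatase Ppm1a, and of these 6 tested genes 0 were called by the 3 tools and 0 had an unadjusted p below 0.05. Of the 2 heterochromatin protein 1 genes tested, partners of Lbr, 0 were called by the 3 tools and 1, Cbx5, had an unadjusted p below 0.05. The 9 enzymes of sterol synthesis after lanosterol, the pathway in which Lbr acts, had 0 calls by the 3 tools, 4 at an unadjusted p below 0.05 and log2 fold changes from -0.77 to 0.40. With the GC correction 2 of them were called lower, Cyp51 (-0.78, adjusted p = 0.0253) and Hsd17b7 (-0.97, adjusted p = 0.0260).

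Of Rb1 and Hdac3, which LAP2 isoforms bind, and the Rb1 family members Rbl1 and Rbl2, 1 of 4 was called. At an unadjusted p below 0.05 there were 2 genes, Rb1 and Rbl1, both higher. Rb1 had 5 UMIs in each shControl library and 14, 14 and 8 in shLmna. Its log2 fold change of 1.29 (SE 0.42, adjusted p = 0.0529, edgeR) did not pass the test. Rbl1, a pocket protein that represses E2F target genes, rose by 0.90 (SE 0.21, adjusted p = 0.0115), and with the GC correction it read 0.26 (adjusted p = 0.498). Without shControl replicate 2 its adjusted p was 0.0784. Of 14 tested proliferation genes, 1 rose and 0 fell by edgeR, and at an unadjusted p below 0.05 there was 1 higher and 3 lower, the helicase subunits Mcm3 (-0.31), Mcm5 (-0.33) and Mcm6 (-0.41). The gene that rose was Ccna2, the S and G2 phase cyclin, at 0.82 (SE 0.16, adjusted p = 0.00323), while the list as a whole had a median of 0.068. With the GC correction Mcm4, a helicase subunit, was also called, at -0.72 (adjusted p = 0.0142), and without shControl replicate 3 Mcm6 was, at -0.52 (adjusted p = 0.0329). Over the 10 lists, 5 genes beside Lmna were called, all higher, where 7.96% of all tested genes were called higher and 5.78% lower. The lists were not tested as sets. After GC correction 8 beside Lmna were called, of which Chmp2b, Cyp51, Hsd17b7 and Mcm4 were lower, and Rbl1 was not among them.

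**Figure D4:**
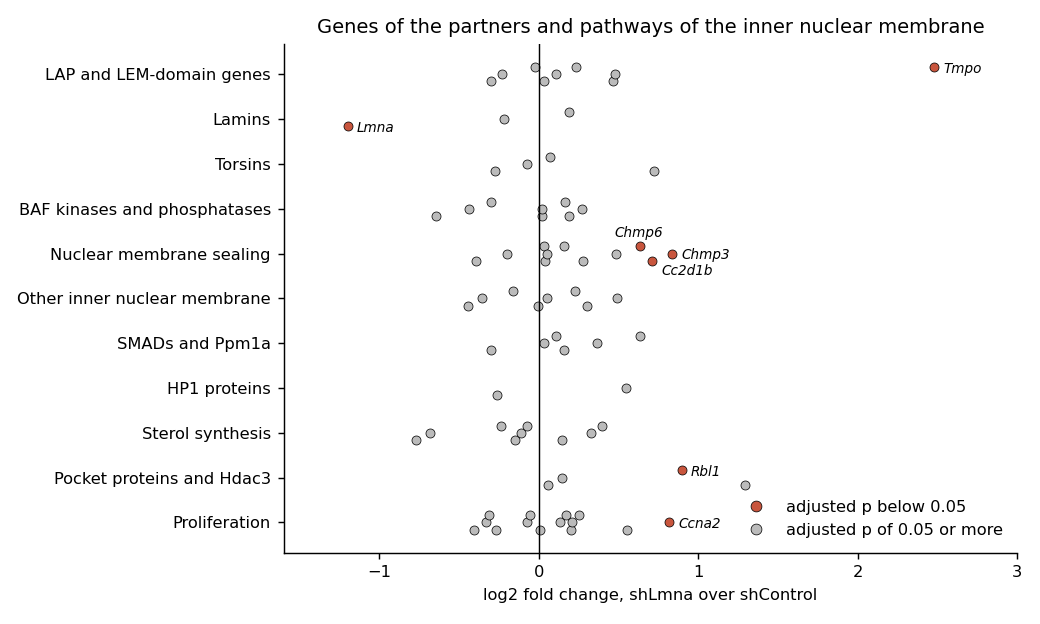
Log2 fold change of shLmna over shControl (horizontal axis) of the tested genes in each list of partners, with the 9 LAP and LEM-domain genes in the top row. Each circle is a gene, spread vertically only for display, and red marks an adjusted p below 0.05. Tmpo lies beyond every gene of the other lists.

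The calls for the 9 genes held in other fits of the counts. The deposited ComBat values are not among these fits and had no test, and they gave a smaller difference of 1.28 for Tmpo. In each of 16 alternative fits, 1 of 9 genes was called higher and 0 lower. The log2 fold change of Tmpo lay between 2.27 and 2.63 in these, and its adjusted p was at most 0.000389. Emd, Lemd2, Tor1aip2 and Banf1 kept their sign in every alternative and were not called in any. Emd came near the threshold without shControl replicate 3, at -0.51 (SE 0.18, adjusted p = 0.0542, edgeR). Without shLmna replicate 2 it read -0.11 (SE 0.20, adjusted p = 0.796, edgeR). Lemd3, Ankle2, Tor1aip1 and Lbr changed sign under at least 1 alternative, and none of them was called.

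**Figure D5:**
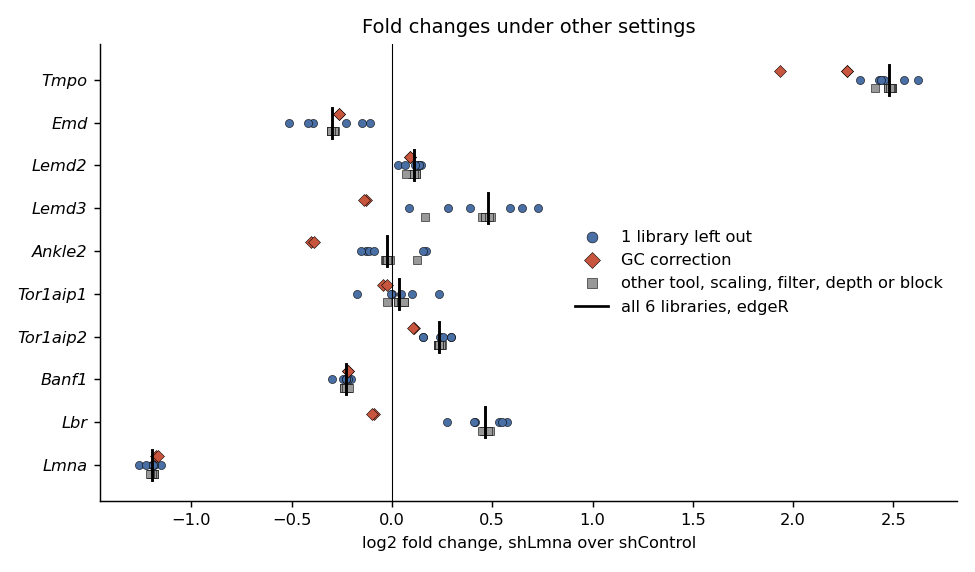
Log2 fold change of shLmna over shControl (horizontal axis) of the 9 genes and Lmna in the edgeR fit of all 6 libraries (black ticks), with 1 library left out (blue circles), after GC correction (red diamonds) and with other tools, scalings, filters, depth or a replicate block (grey squares). In the settings drawn, which leave out the ComBat values, Tmpo stays between 1.93 and 2.63, and Lbr lies above 0 except after GC correction.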

How the data were processed

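RNA of E0771 cells was read by MARS-seq in 6 libraries (3 shControl, 3 shLmna), grouped by the sample labels. The authors trimmed reads with Cutadapt, mapped them to mm10 with STAR 2.4.2a and counted UMIs with a modified HTSeq-count from 1000 bases upstream to 100 bases downstream of RefSeq 3′ ends, which gave the deposited raw UMI counts. The listed genes have a highest count of at least 6. The deposited log2 values were normalized by the authors and corrected with ComBat for a batch not given in the sources used here. The authors' table of their DESeq2 comparison (mean normalized count, log2 fold change, p-value) was not used.

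The counts were filtered with filterByExpr (minimum count 10), scaled by TMM and tested in R 4.3.3 with edgeR 4.0.16 (quasi-likelihood, group only), with Benjamini-Hochberg adjustment over all 8969 genes. Alternatives were RLE and upper-quartile scaling, DESeq2 1.42.0, limma-voom (limma 3.58.1), no filter, a mean count of at least 50, a replicate block, counts thinned to 1846208 UMIs, a loess GC correction (span 0.3, degree 2) and each library left out. Sequences, ends and GC content came from GENCODE M21, matched for 10468 of 10520 genes, and can differ from RefSeq. LEM domains were found by local alignment in Biopython 1.88. Figures used Python 3.11.15 and matplotlib 3.10.9. Scripts were tested on simulated data. At 3 libraries a group and these depths, genes with few UMIs have wide intervals.

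The members and lists were chosen with earlier results of these data known. Named are all 9 members, the lamins, called genes of each list (at most 4), genes overlapping a counted end and fixed cell type markers. Other genes of the lists were named after their values were seen. Some sequences are not reported here.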

Additional observations from a re-analysis of the deposited data

How the results depend on the processing

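All 16 alternative fits gave 1 of the 9 genes called higher, 0 called lower and 1 past the study criteria. With any 1 of the 6 libraries left out, the 9 ratios to Lmna stayed separate. With all 6 libraries the same separation held for 91% of all tested genes, so it is not particular to the 9 genes. The adjusted p of Tmpo ranged from 8.936e-26 to 0.000389, and the log2 fold change of Lmna from -1.26 to -1.15. With the GC correction the log2 fold change was -0.13 for Lemd3, -0.092 for Lbr and -0.045 for Tor1aip1, each opposite in sign to the value without it, and with the GC correction and replicate block together it was -0.14, -0.099 and -0.024. Ankle2 moved from -0.024 to -0.40 with the GC correction and was not called, and Tmpo read 1.93 with the GC content of its lowest-GC end, chosen after seeing the data. Counts thinned to the smallest library gave 0.12 for Ankle2 and -0.027 for Tor1aip1, both reversed, and the ComBat values gave 0.0019 for Ankle2. With 1 library left out, Ankle2 ranged from -0.16 to 0.17 and Tor1aip1 from -0.17 to 0.23. The cause was not tested. Lemd3 and Ankle2 gave no value at a mean count of at least 50.

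The called genes of the partner lists numbered 6, and 3 to 8 with 1 library left out (3 without shControl replicate 2). With the GC correction there were 9. Separate shares of member UMIs numbered 2, and 2 to 6 with 1 library left out, with no number over all genes given beside them. Over all genes, 714 were called higher and 518 lower, and without shControl replicate 2 these were 353 and 187. With the GC correction they were 728 and 772, and with the block added 664 and 732. At a mean count of at least 50, 425 were called higher.

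The labels do not say that same-numbered libraries share anything, so the numbers were not taken as pairs. Deviations of same-numbered libraries correlated at 0.35, -0.11 and 0.0052, which does not settle whether they share a batch. The replicate block gave 1350 calls, 1203 of them among the 1232 without it, and a log2 fold change of 2.49 for Tmpo. It changed no call among the 9 genes. Few UMIs limit Lemd3 and Ankle2 most.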
